A study of Mus musculus with 8 samples.

Results

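The cytosolic ribosomal protein genes encode the proteins of the ribosome that translates nuclear-encoded mRNAs. Here they are the protein-coding genes of the GENCODE mouse annotation whose symbols are Rpl or Rps and a number with at most one of the letters a, x, y or l and a further number after it, with the Rplp genes and Rpsa, leaving out pseudogenes. The rule gave 83 of 21938 protein-coding genes on the assembled chromosomes, 32 named for the small subunit and 51 for the large subunit. Of the 83, 77 are core proteins of the ribosome and 6 are copies, namely Rpl3l, Rpl7l1, Rpl10l, Rpl22l1, Rpl39l and Rps27l. Core genes with other names, such as Fau, do not match the rule. A promoter site of a gene was a site of the deposited ASH2L list whose centre lies within 1 kb of any annotated transcription start site (TSS) of that gene.

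The chromatin came from immortalized mouse embryo fibroblasts, iMEF-Ash2l fl/fl-Cre-ER, in which exon 4 of the endogenous Ash2l had been removed through Cre-ER and which lived on a lentiviral human ASH2L fused to FKBP-F36V and HA tags. The sequenced libraries were 4 of ASH2L chromatin immunoprecipitation (ChIP) and 4 of input DNA, in 4 groups of 2, without dTAG or with dTAG for 1 h, an agent that brings the fusion protein to cereblon for degradation. All groups thus shared the deletion of the endogenous gene and the transgene, and the lines were single clones, so no library measured endogenous Ash2l. The labels name an Ash2l antibody, whereas the study's text describes HA-selective antibodies for this experiment. The list used here holds 6444 site positions found over all samples and no value per library, so it gives where ASH2L was called and not how much, the depth behind a site is unknown, and the change after dTAG was not measured here.

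ASH2L is a core subunit of the KMT2 (COMPASS) complexes, which methylate lysine 4 of histone H3 (H3K4), and trimethylation of that lysine marks active promoters. A ribosome holds each core ribosomal protein in equal number with few exceptions, and dividing cells spend much of their transcription on these genes. Their promoters are known for CpG islands, for short first exons, for a start site inside a run of pyrimidines that becomes the terminal oligopyrimidine (TOP) tract of the mRNA, and for snoRNAs kept in the introns.

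Of the 83 genes, 60 had an ASH2L promoter site (72.3%, 95% Wilson interval 61.8 to 80.8%), where 14.0% of all protein-coding genes had one. The mitochondrial ribosomal protein genes, which serve the ribosome of the organelle, had a site at 32 of 78 (41.0%, 30.8 to 52.1%), and the genes with Eif or Eef symbols at 32 of 68 (47.1%, 35.7 to 58.8%). The latter set was taken by symbol, and holds translation factors but also genes of other function, such as Eef1akmt2. The interval of the cytosolic set lies above those of both families. A CpG island, taken as a window of 200 bp within 1 kb of the TSS with at least 50% GC and a ratio of observed to expected CpG of at least 0.6, was present at 82 of the 83 genes. Among other protein-coding genes with such an island, 19.6% had a site (2904 of 14843), and 21.8% of those with an island over a 500 bp window. All intervals cover counting error over genes only, since no replicate enters the list.

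**Figure D1:**
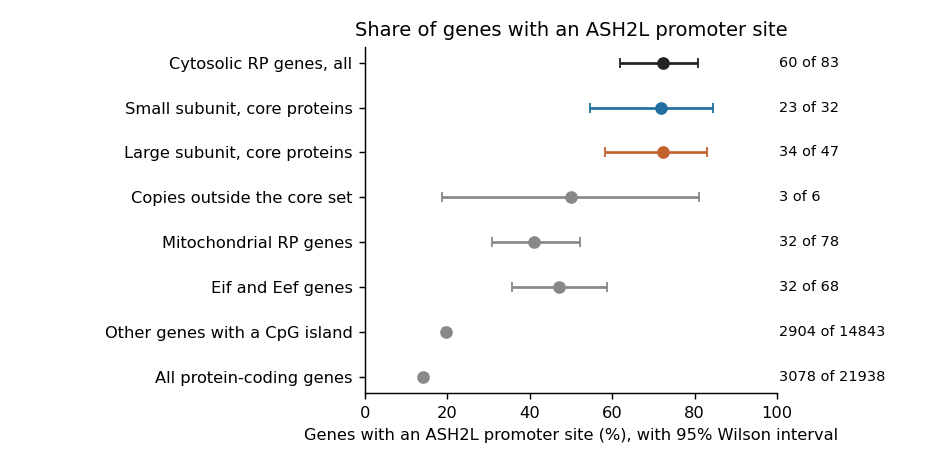
Share of genes with an ASH2L promoter site (x axis, percent of genes) for each gene set (y axis), with points for the share, bars for the 95% Wilson interval and the counts at the right. The cytosolic ribosomal protein genes lie at 72.3%, above the mitochondrial ribosomal protein genes at 41.0% and the Eif and Eef genes at 47.1%.

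Genes of both subunits carried sites. A site was present at 24 of the 32 small subunit genes (75%) and at 36 of the 51 large subunit genes (70.6%), a difference of 4.41 percentage points with a 95% Newcombe interval of -15.8 to 22.4. Over the core proteins alone, with Fau and the like included, the shares were 71.9% (23 of 32) and 72.3% (34 of 47), and the difference of the small from the large subunit was -0.465 points (-20.8 to 18.4). The intervals reach far to either side of 0, so neither a difference nor equal shares can be read from these counts.

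Among the small subunit genes with a site were Rpsa, Rps2, Rps3, Rps3a1, Rps6, Rps9, Rps12, Rps14, Rps15a, Rps18, Rps19, Rps20, Rps21, Rps23, Rps24, Rps25, Rps26, Rps27, Rps27a, Rps27l and Rps29. They include Rps6, the target of the S6 kinases, Rps27a, whose product is a fusion of ubiquitin with a ribosomal protein, Rpsa, also known as the laminin receptor, and Rps19, the gene most often mutated in Diamond-Blackfan anaemia. Those of the large subunit included Rpl3, Rpl5, Rpl7, Rpl7a, Rpl7l1, Rpl8, Rpl9, Rpl10, Rpl10a, Rpl13, Rpl13a, Rpl15, Rpl17, Rpl18, Rpl19, Rpl21, Rpl22, Rpl22l1, Rpl23, Rpl23a, Rpl26, Rpl27, Rpl27a, Rpl29, Rpl30, Rpl32, Rpl34, Rpl35a, Rpl36, Rpl37, Rpl37a, Rpl38, Rpl41, Rplp0 and Rplp1. Among them, Rpl3 lies near the peptidyl transferase centre, Rpl10 joins late in 60S maturation, Rpl38 is known for a role in the translation of Hox mRNAs, and Rplp0 and Rplp1 belong to the acidic stalk that contacts elongation factors.

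No site was found at 8 small subunit genes, among them Rps4x, Rps7, Rps10, Rps13, Rps15, Rps16 and Rps28. Nor was one found at 12 core genes of the large subunit, Rpl4, Rpl6, Rpl11, Rpl12, Rpl14, Rpl24, Rpl28, Rpl31, Rpl35, Rpl36a, Rpl39 and Rplp2, or at the copies Rpl3l, Rpl10l and Rpl39l. Partners in the ribosome thus fell on both sides. Rpl5 had sites while Rpl11, which binds 5S rRNA and Mdm2 together with Rpl5, had none, and of the stalk genes Rplp0 and Rplp1 had a site while Rplp2 had none. None of the 23 genes had a site within 3 kb of a TSS. For example, the nearest site was 6.98 kb away for Rpl3l and 7.21 kb for Rpl11, neither being the lowest distance. Over the 23 genes the median was 110.3 kb, and for 13 of the 23 it was over 100 kb, up to 899.6 kb for Rpl36a. Fau lay 19.0 kb from the nearest site.

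Some members lie near each other. The main TSSs of Rps2 and Rpl3l on chromosome 17 are 7.76 kb apart, and Rps2 had its site while Rpl3l, the muscle copy of Rpl3, had none. Rpl41 and Rps26, 77.4 kb apart on chromosome 10, both had sites. By chromosome, all 7 members on chromosome 11 had a site, as did all 4 on chromosome 15 and all 4 on chromosome 3. On chromosomes 12 and 16, however, 1 of 3 members each had a site, and on chromosome 17 5 of 8. The shares of other genes on these chromosomes are not given here, and the counts are too small to compare chromosomes. On chromosome 7, which carries 14 members, 9 had one (64.3%) against 6.77% of its other protein-coding genes. On the X chromosome only Rpl10 of 4 members had a site, with 2.44% of the other X-linked genes marked, and Rpl36a, Rpl39 and Rps4x had none. With 4 genes this share has a Wilson interval of 4.56 to 69.9%.

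The copies split evenly, with a site at 3 of 6 (50.0%, 18.8 to 81.2%). Rpl22l1, the paralogue of Rpl22, carried a site of 321 bp at chr3:28805615-28805935, centred 112 bp downstream of its nearest TSS. Rpl7l1 carried one of 348 bp at chr17:46782383-46782730, 80.5 bp downstream, and Rps27l, a p53 target related to Rps27, one of 421 bp at chr9:66946090-66946510, 55.0 bp upstream of the nearest TSS and 214 bp downstream of the main one. Each of these 3 genes has a CpG island, and their parents Rpl22, Rpl7 and Rps27 also had a site. Of the copies without a site, Rpl3l of heart and skeletal muscle (main TSS at chr17:24727820) was the only member without a CpG island, with a CpG ratio of 0.172 around its TSS. Rpl10l, an intronless copy used in the male germ line (chr12:66284401), and Rpl39l, also known from testis (chr16:10170228), had ratios of 0.722 and 0.550, an island, and their nearest sites at 476 and 216 kb. Their parents again fell on both sides, with sites at Rpl3 and Rpl10 and none at Rpl39. A further pair of copies has symbols outside the rule. Rpl36al, the autosomal copy of Rpl36a, had 2 sites, the nearer centred 0.246 kb from a TSS, while Rpl36a itself had none, and Rps27rt had none within 327 kb. The annotation holds 300 pseudogenes named after a ribosomal protein, and 0 of them had a site centred within 1 kb, which allows a share of up to 1.00% when the limit for a count of 0 is set at 3 counts. Whether reads can be placed at these pseudogenes was not measured, and no share of other pseudogenes is given beside this count.

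The sequences around the main TSS are shown for genes with the widest sites of each subunit, for core genes without a site and for the copies without one, so that the promoter classes can be compared by eye. Each runs 5′ to 3′ on the strand of the gene from 100 bases before to 20 bases from the main TSS on, from the GRCm38 reference, with a pyrimidine tract at the start in capitals where one was found. A tract was a C within 5 bases of the TSS followed by at least 4 C or T.

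The small subunit genes that follow are among those with the widest sites.
Rps12 (chr10:23787256-23787375, minus strand): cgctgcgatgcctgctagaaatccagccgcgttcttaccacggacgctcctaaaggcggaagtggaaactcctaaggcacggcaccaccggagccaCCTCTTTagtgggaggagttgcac
Rps20 (chr4:3835646-3835765, minus strand): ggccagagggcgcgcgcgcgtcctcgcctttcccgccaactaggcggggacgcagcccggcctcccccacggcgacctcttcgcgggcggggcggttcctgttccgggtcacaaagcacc
Rps27a (chr11:29548090-29548209, minus strand): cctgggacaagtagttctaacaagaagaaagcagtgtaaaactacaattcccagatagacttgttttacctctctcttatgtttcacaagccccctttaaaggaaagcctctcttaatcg

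Of the large subunit, these genes had the widest sites.
Rpl38 (chr11:114668424-114668543, plus strand): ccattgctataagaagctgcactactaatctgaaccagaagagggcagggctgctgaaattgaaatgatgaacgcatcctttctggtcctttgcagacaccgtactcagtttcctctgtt
Rpl5 (chr5:107900402-107900521, plus strand): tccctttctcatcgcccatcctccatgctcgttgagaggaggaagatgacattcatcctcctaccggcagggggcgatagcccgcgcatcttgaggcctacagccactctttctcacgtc
Rpl3 (chr15:80083387-80083506, minus strand): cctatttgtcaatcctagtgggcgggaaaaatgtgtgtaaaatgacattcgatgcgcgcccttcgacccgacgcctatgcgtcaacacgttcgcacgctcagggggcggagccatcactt
Rpl37 (chr15:5116545-5116664, plus strand): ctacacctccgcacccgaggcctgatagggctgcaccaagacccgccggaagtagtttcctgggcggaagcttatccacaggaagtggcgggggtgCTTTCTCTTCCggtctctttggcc

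The next genes are core proteins without a site, of the small and then of the large subunit.
Rps4x (chrX:102189375-102189494, minus strand): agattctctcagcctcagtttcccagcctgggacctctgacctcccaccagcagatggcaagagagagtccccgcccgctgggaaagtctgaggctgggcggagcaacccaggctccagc
Rps7 (chr12:28635934-28636053, minus strand): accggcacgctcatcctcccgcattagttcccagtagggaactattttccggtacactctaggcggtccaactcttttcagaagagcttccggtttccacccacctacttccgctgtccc
Rpl4 (chr9:64173275-64173394, plus strand): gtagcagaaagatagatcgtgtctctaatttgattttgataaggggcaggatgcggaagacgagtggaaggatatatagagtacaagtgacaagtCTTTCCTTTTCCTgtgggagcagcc
Rpl6 (chr5:121204381-121204500, plus strand): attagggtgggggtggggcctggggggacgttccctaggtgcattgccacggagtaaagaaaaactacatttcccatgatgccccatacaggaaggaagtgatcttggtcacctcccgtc

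The copies without a site have these promoters.
Rpl3l (chr17:24727720-24727839, plus strand): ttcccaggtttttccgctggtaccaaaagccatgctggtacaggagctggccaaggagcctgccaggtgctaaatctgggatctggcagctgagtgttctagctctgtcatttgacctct
Rpl10l (chr12:66284382-66284501, minus strand): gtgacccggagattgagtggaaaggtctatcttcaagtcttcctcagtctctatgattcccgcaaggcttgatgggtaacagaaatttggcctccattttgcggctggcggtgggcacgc
Rpl39l (chr16:10170128-10170247, plus strand): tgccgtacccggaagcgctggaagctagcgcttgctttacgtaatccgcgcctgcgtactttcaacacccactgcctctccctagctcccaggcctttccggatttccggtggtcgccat

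A tract can be read at Rps12 and Rpl37, which have wide sites, and also at Rpl4, which has none. The printed window of Rps20 holds 17 CG doublets and that of Rpl3 holds 12, while that of Rpl3l holds 1, and Rpl10l and Rpl39l have 5 and 11. Those of Rps27a and Rpl38 hold 1 and 2, although both genes have a CpG island. Over the members, 22 of 83 had a tract at the main TSS (26.5%, 18.2 to 36.9%) beside 18.2% of all protein-coding genes. The tract depends on the exact base called the start. At the RefSeq start 41.0% of members had one, beside 18.9% of genes with a RefSeq mRNA. By the main TSS the tract was present at 31.7% of members with a site (21.3 to 44.2%) and at 13.0% of those without (4.54 to 32.1%), and by the RefSeq start at 41.7% and 39.1%, with overlapping intervals in both annotations.

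Other features of the promoters were set beside the sites as a description. Within 250 bases before to 50 after the main TSS, and on either strand, the letters CCGGAAG of the ETS family, to which GABP belongs, were present at 31.3% of members and 11.2% of all protein-coding genes, and in members at 30.0% with a site and 34.8% without. Other protein-coding genes with a site had them at 22.2% and the mitochondrial ribosomal protein genes at 37.2%, so this share is not particular to the cytosolic set. The YY1 letters AANATGGC were present at 13.3% beside 6.37%, with 15.0% and 8.70% for members with and without a site and 20.5% for the mitochondrial family. The GC box GGGCGG was present at 51.8% beside 45.4%, and beside 62.6% of other genes with a site, the letters TATAAA at 12% beside 12.6%, the E-box CACGTG at 10.8% beside 7.71% and the NRF1 letters CGCATGCG at 2.41% beside 2.66%. For each of these 6 motifs the Wilson intervals of members with and without a site overlapped. The ratio of observed to expected CpG around the main TSS had a median of 0.828 (quartiles 0.755 to 0.889) in members with a site, 0.749 (0.694 to 0.816) in members without, 0.823 in other genes with a site and 0.570 over all protein-coding genes. GC content was close, at 57.4% and 56.4%. The first exon had a median of 84.5 bp (quartiles 59.5 to 165) in members with a site and of 125 bp (84.5 to 279.5) in those without, with overlapping quartiles. An antisense TSS of another gene within 1 kb upstream was present at 23.3% of members with a site and 17.4% of those without.

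Processed pseudogenes repeat the exons of these genes, which bears on whether reads can be placed. Within 500 bp of the main TSS the median share of 36-base words that occur once in the genome was 98.5% (quartiles 91.7 to 100.0%) in members with a site and 95.4% (89.6 to 99.4%) in members without, and 100.0% over all protein-coding genes. With words of 75 bases, about the length of the reads, both medians were 100.0%. Rps29, with the lowest share of 60.4% for 36 bases and 71.3% for 75 bases, had a site of 605 bp. Rpl24, with 70.6% and 89.3%, was the lowest of the members without a site. The part of read placement in the missing calls was not tested.

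snoRNA genes lie inside 30 of the 83 members (36.1%, beside 1.18% of all protein-coding genes), and 22 of these 30 had a site (73.3%), as did 38 of the 53 without a snoRNA (71.7%). Of the 71 promoter sites at members, 5 overlapped a snoRNA gene, among them those of Rpl23a, Rps2, Rps12 and Rps20 (7.04%, beside 0.224% of the sites of other genes). Another protein-coding gene had a TSS within 1 kb of the centre of 11 of the 71 sites, for example Med22 beside Rpl7a, Lias beside Rpl9, Vps52 beside Rps18 and Polr3a beside the distal site of Rps24, so these sites cannot be given to the ribosomal protein gene alone. At 26 sites only genes of other types, such as snoRNAs inside the member, lay as near, and at 34 there was no other gene.

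The sites lay downstream of the start. Most ribosomal protein genes have several annotated TSSs (median 6), so the offset was taken from the nearest TSS, from the main TSS of the principal transcript, and from the RefSeq mRNA start. From the nearest TSS, 50 of 71 site centres were downstream (70.4%, 59.0 to 79.8%), with a median offset of 86.5 bp (quartiles -19.5 to 164). From the main TSS, 66 of 70 were downstream (94.3%, 86.2 to 97.8%), with a median of 269.5 bp (quartiles 169 to 389, 95% interval of the median 214 to 320.0). The RefSeq start gave 91.4% and 216 bp. One site, the distal one of Rps24, was left out of the last 2 counts because it lies more than 3 kb from both starts. Sites of other protein-coding genes were downstream of the main TSS in 72.2% of cases with a median of 160.2 bp (148 to 174), and those of mitochondrial ribosomal protein genes in 73.5% with 82.8 bp. Sites of the Eif and Eef genes lay closer to those of the cytosolic set, with 83.3% downstream of the main TSS at a median of 201 bp (55.5 to 344), and 222 bp from the RefSeq start where the members had 216 bp. The distance is thus not particular to the cytosolic set. Against other protein-coding genes as a whole the members' median was larger from each of the 3 starts, but from the nearest TSS the intervals overlapped, both for the downstream share (70.4%, 59.0 to 79.8%, and 61.3%, 59.7 to 62.9%) and for the median offset (86.5 bp, 44.5 to 112, and 48.5 bp, 41.0 to 59.5).

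**Figure D2:**
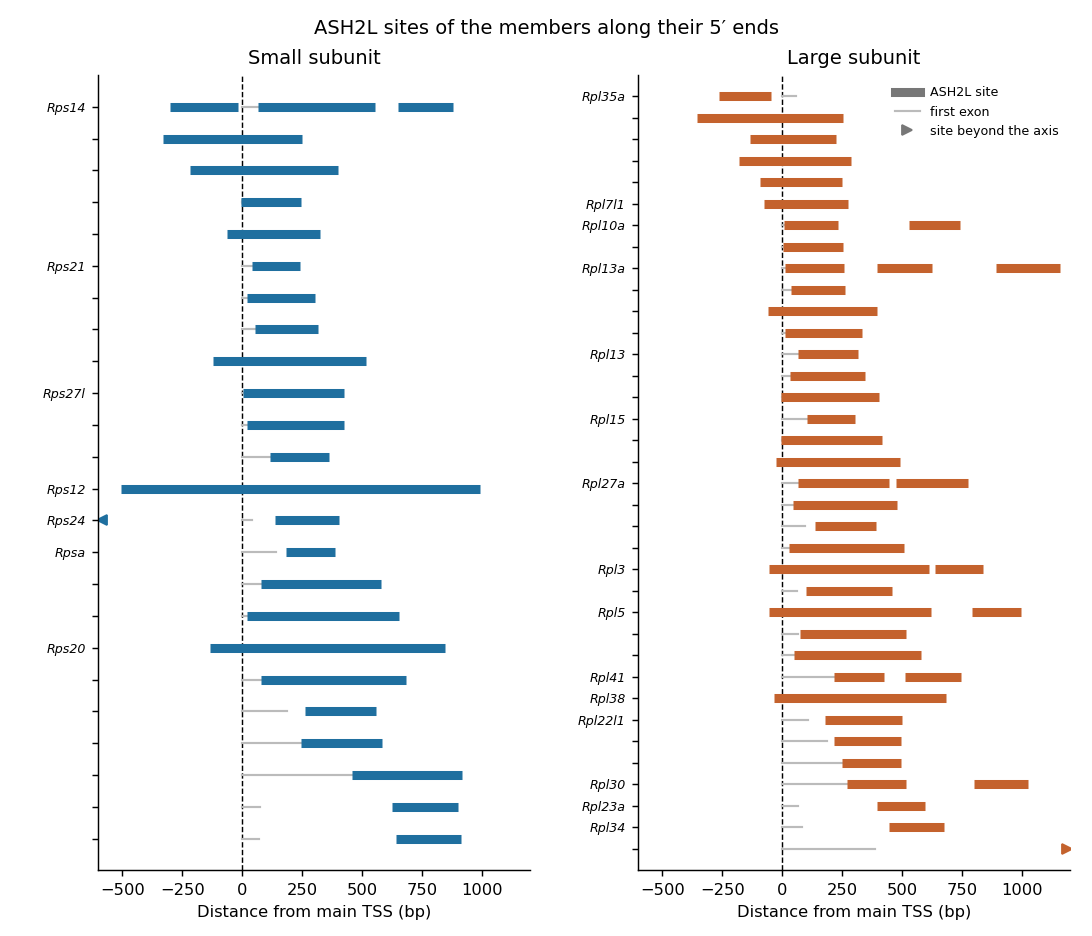
ASH2L sites (thick bars) of the 60 members with a site, small subunit at the left and large subunit at the right, against the distance from the main TSS in bp, with gene names for those whose site is described singly, thin grey lines for the first exon and arrowheads for sites beyond the axis. Most bars begin near the TSS and run downstream, the widest being that of Rps12 at 1497 bp.

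Coverage showed the same place without reference to centres. Among the 60 members with a site, the position 220 bp downstream of the main TSS was covered in 49 (81.7%), the highest of any position, while the TSS itself was covered in 19 (31.7%). Other protein-coding genes with a site peaked at 130 bp with 49.5%, and 38.2% were covered at the TSS. Genes qualified by a site at any TSS, so those with a site only at another TSS can add no coverage near the main one. Of the 3569 sites of other genes, 3238 lay within 3 kb of the main TSS, beside 70 of 71 for members. This part of the difference in height was not separated. From the RefSeq start the members peaked at 190 bp with 85.0%. The 68 sites centred within 1 kb of the main TSS ran from a median upstream edge of 47.0 bp to a median downstream edge of 469.5 bp, both downstream of the TSS.

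**Figure D3:**
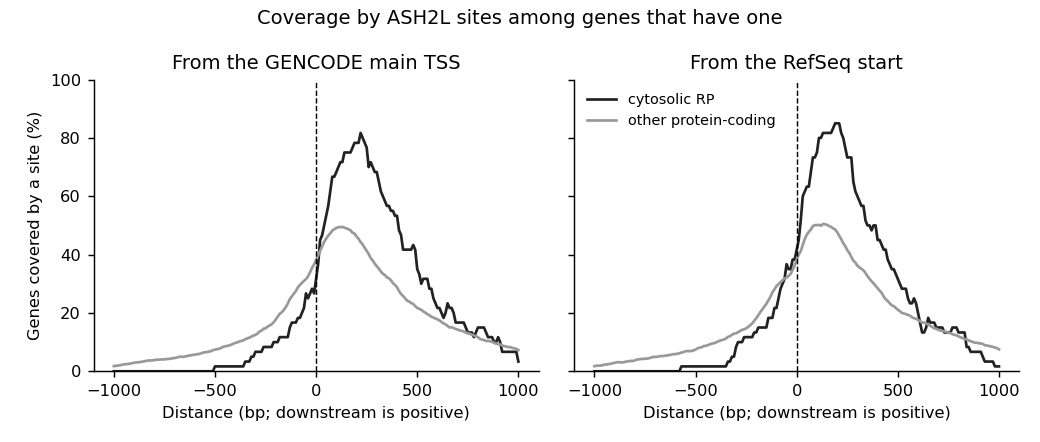
Percent of genes covered by an ASH2L site (y axis) at each distance from the start in bp (x axis), among genes with a promoter site, from the GENCODE main TSS at the left and the RefSeq start at the right, with cytosolic ribosomal protein genes in black and other protein-coding genes in grey. The black line reaches 81.7% at 220 bp and 85.0% at 190 bp, above a grey line that reaches 49.5% and 50.5% at 130 bp.

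In terms of the gene's parts, 50 of 71 site centres lay in intron 1 (70.4%), beside 31.5% for the sites of other protein-coding genes. Only 6 lay in exon 1 (8.45%, beside 33.0%) and 5 upstream of the main TSS (7.04%, beside 29.5%), with 5 in later exons and 5 in later introns. The parts are those of the main transcript, so a site upstream of its TSS can still lie inside the gene. Sites more than 3 kb from the main TSS, such as the distal one of Rps24, are included here. The first exon of members with a site had a median of 84.5 bp, beside 240.0 bp for other genes with a site, so a distance of some 200 bp is past the exon in the former and inside it in the latter. The length of the first exon was not held equal in this comparison.

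The sites of members were about as wide as others. The median width was 315 bp (quartiles 245 to 458, 95% interval 266 to 389), beside 303 bp (231 to 423) for other protein-coding genes. The smallest width in the list is 200 bp, which 1281 of the 6444 sites share. It was found at 3 of the 71 sites of members (4.23%, beside 9.33%), and 14 were over 500 bp (19.7%, beside 16.5%). Small subunit sites had a median of 338 bp (quartiles 264 to 540.5) and large subunit sites of 308 bp (234 to 432), with 8 of 27 and 6 of 44 over 500 bp.

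The widest site by far was that of Rps12, which spanned 1497 bp at chr10:23786283-23787779, from 504 bp upstream to 992 bp downstream of its main TSS at chr10:23787275. That of Rps20 spanned 981 bp at chr4:3834819-3835799, centred 356 bp downstream of the main TSS at chr4:3835665. The site of Rpl38 measured 718 bp (chr11:114668488-114669205, centre 322.5 bp downstream of chr11:114668524). Rpl5 and Rpl3 each had a wide site and a narrow one. The wide one of Rpl5 measured 677 bp (chr5:107900446-107901122, centre 282 bp downstream of chr5:107900502) and that of Rpl3 669 bp (chr15:80082794-80083462, centre 278 bp downstream of chr15:80083406). All 5 covered the main TSS. At the other end, 3 sites had the smallest width of 200 bp. They were that of Rps21 at chr2:180257419-180257618, 141.5 bp downstream of the main TSS (chr2:180257377), that of Rpl23a at chr11:78182989-78183188, 495.5 bp downstream (chr11:78183584), and the narrow site of Rpl3. Just above it were Rpl15 with 201 bp (chr14:18270765-18270965), Rpsa with 204 bp (chr9:120127871-120128074) and the narrow site of Rpl5 with 208 bp, the first 2 centred 202 and 283.5 bp downstream of their main TSSs at chr14:18271067 and chr9:120127689.

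No site centre was farther than 520.5 bp from the nearest TSS of its gene. Upstream of the nearest TSS, those of Rps14 at -159 bp, Rpl35a at -154 bp (219 bp wide, chr16:33056190-33056408, main TSS chr16:33056453) and Rpl13 at -112 bp (251 bp wide, chr8:123102414-123102664, main TSS chr8:123102350) were the farthest. The one of Rpl13 nevertheless lay 189 bp downstream of the main TSS, while Iqcg also has a TSS within 1 kb of the site of Rpl35a. Downstream, the narrow site of Rpl5 at 520.5 bp, a site of Rpl27a at 503 bp and the site of Rpl34 at 482.5 bp (234 bp wide, chr3:130729722-130729955, main TSS chr3:130730398) were the farthest.

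Of the 60 genes, 51 had 1 site, 7 had 2 and 2 had 3, so that 15.0% had several, beside 14.8% of all protein-coding genes with a site. Rpl13a, on the minus strand of chromosome 7 with its main TSS at chr7:45128761, had 3 sites of 244, 233 and 268 bp (chr7:45128505-45128748, chr7:45128136-45128368 and chr7:45127603-45127870) centred 134.5, 509 and 1024.5 bp downstream. Rps14 had 3 sites of 285, 487 and 233 bp at -159, 310 and 763 bp from its main TSS. The narrow sites of Rpl3 (chr15:80082570-80082769) and Rpl5 (chr5:107901291-107901498) lay 736.5 and 892.5 bp downstream. Rpl10a (main TSS chr17:28328568) had sites of 225 bp (chr17:28328577-28328801) and 213 bp (chr17:28329095-28329307) at 121 and 633 bp. Rpl27a (chr7:109519147) had sites of 382 bp (chr7:109519213-109519594) and 301 bp (chr7:109519623-109519923) at 256.5 and 626 bp, with only 28 bp between them. Rpl30 (chr15:34443640) had sites of 250 bp (chr15:34443123-34443372) and 225 bp (chr15:34442617-34442841) at 392.5 and 911 bp, and Rpl41 (chr10:128549305) sites of 211 bp (chr10:128548880-128549090) and 234 bp (chr10:128548559-128548792) at 320 and 629.5 bp. In these 8 genes the sites of a gene were 24 to 293 bp apart, so a caller that joins near peaks would give fewer. Rps24 was different. Next to its main TSS (chr14:24490718) it had a site of 266 bp (chr14:24490856-24491121) at 270.5 bp, and the other, of 215 bp (chr14:24486962-24487176), lay at -3649 bp from it, 56.0 bp upstream of the start of a longer transcript and beside Polr3a.

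The sites farther into the gene differed in base composition. Of the sites of members, 49 were centred 0 to 400 bp downstream of the main TSS, with a median CpG ratio of 0.910, and 1 of the 49 was below 0.6 (2.04%), that of Rpl7 at 0.502. Beyond 500 bp there were 14 sites, with a median ratio of 0.554 and 8 below 0.6 (57.1%). Their median GC content was 51.1%, beside 64.7% in the nearer ones, and their median width 234 bp, beside 362 bp. At other protein-coding genes 3.63% of 1517 near sites and 26.4% of 640 far ones were below 0.6, with medians of 0.923 and 0.769, a smaller difference in the same direction, and the median widths of 312 and 311 bp did not follow the place. The distances were chosen after the values had been seen. The 8 sites were those of Rpl3 (0.125), Rpl13a (0.228 and 0.255), Rpl30 (0.369), Rps2 (0.398), Rps14 (0.467), Rpl10a (0.547) and Rpl41 (0.560). All but that of Rps2 came on top of a site nearer to the start. Rps2, Rps9, Rps25, Rpl34 and Rpl18 had only a far site. This class turned on the TSS in part, since from the RefSeq start the sites of Rpl18, Rps25 and Rpl34 lie at -79.5, 110.5 and 498.5 bp, and the low-ratio sites of Rpl13a and Rpl41 nearest to the limit at 493 and 492.5 bp.

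**Figure D4:**
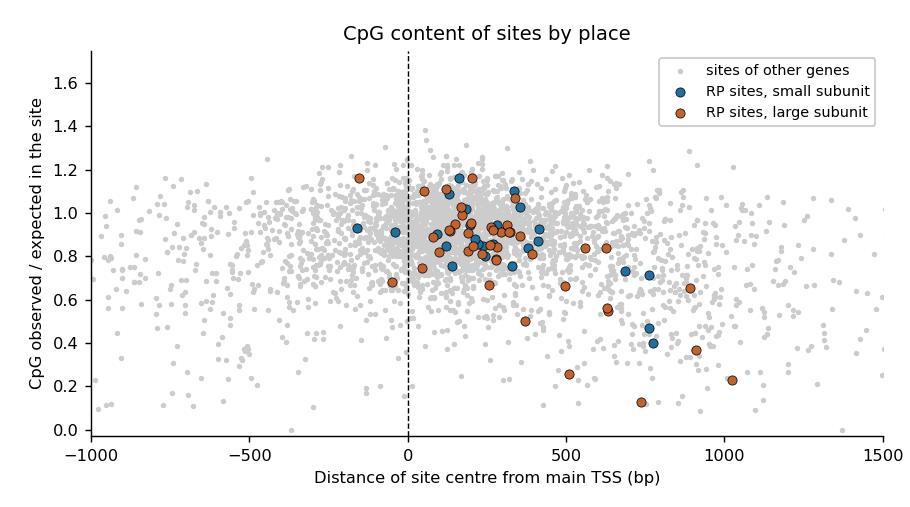
Ratio of observed to expected CpG in each ASH2L site (y axis) against the distance of its centre from the main TSS in bp (x axis), for sites of small subunit genes in blue, of large subunit genes in orange and of other protein-coding genes in grey. The sites of members with a ratio below 0.6 lie beyond 500 bp, except that of Rpl7, and the sites of Rps24 and Rpl18 farthest from the start fall outside the axis.

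The central 100 bases of the sites of Rpl3 and Rpl13a, genes with near and far sites, and of Rpl38 with a wide site, show this difference. They run 5′ to 3′ on the strand of the gene (GRCm38), with each CG in capitals and the distance of the centre from the main TSS before the coordinates.
Rpl3 at 278.0 bp (chr15:80083079-80083178, minus strand): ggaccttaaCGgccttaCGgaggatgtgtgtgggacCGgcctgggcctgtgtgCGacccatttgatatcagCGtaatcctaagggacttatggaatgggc
Rpl3 at 736.5 bp (chr15:80082620-80082719, minus strand): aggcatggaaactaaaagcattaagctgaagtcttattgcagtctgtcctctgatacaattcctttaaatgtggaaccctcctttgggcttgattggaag
Rpl13a at 134.5 bp (chr7:45128577-45128676, minus strand): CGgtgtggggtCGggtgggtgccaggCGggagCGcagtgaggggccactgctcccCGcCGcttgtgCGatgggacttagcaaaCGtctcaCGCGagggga
Rpl13a at 509.0 bp (chr7:45128203-45128302, minus strand): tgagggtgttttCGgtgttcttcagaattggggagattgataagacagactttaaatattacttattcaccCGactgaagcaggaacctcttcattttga
Rpl13a at 1024.5 bp (chr7:45127687-45127786, minus strand): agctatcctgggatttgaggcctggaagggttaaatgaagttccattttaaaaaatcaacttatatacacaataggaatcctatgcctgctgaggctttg
Rpl38 at 322.5 bp (chr11:114668797-114668896, plus strand): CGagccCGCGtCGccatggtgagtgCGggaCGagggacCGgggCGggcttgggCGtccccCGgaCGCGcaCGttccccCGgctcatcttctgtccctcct

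The near window of Rpl3 holds 5 CG and the far one 0, and those of Rpl13a hold 10, 2 and 0 with the distance. That of Rpl38 holds 14.

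Over their whole length the sites of members had a median GC content of 62.5%, beside 66.6% for sites of other protein-coding genes, and like CpG ratios of 0.869 and 0.879. In the central 200 bases of the sites the ETS letters were present in 6 of 71 (8.45%, beside 13.2%) and those of the GC box in 28 (39.4%, beside 47.3%), while those of YY1 were present in 7 (9.86%, beside 6.18%) and the E-box in 5 (7.04%, beside 3.25%). The promoter windows of the 60 genes with a site, longer by 100 bases, held the ETS letters at 30.0%.

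Genes of the same pathway were read from lists chosen for it, each to be set beside the 14.0% of all protein-coding genes with a site. The lists are not separate from the sets above, since the first one shares genes such as Eef1a1, Eef2 and Eif3e with the Eif and Eef genes. Of 14 other genes whose mRNAs carry a TOP tract, 12 had a site (85.7%, 60.1 to 96.0%), including Eef1a1 (1045 bp) and Eef2 (715 bp), which encode elongation factors, Tpt1 (671 bp) and Pabpc1, the poly(A) binding protein (348 bp). Eef1g and Rack1, a protein of the 40S subunit, had none. Of 27 genes for ribosome assembly 12 had a site (44.4%, 27.6 to 62.7%). Among them were Npm1 (1023 bp) and Ncl, the major nucleolar proteins, Nop56 and Gar1 of the snoRNPs, and Bop1, Pes1 and Wdr12, whose products form the PeBoW complex, whereas Fbl, Nop58, Dkc1 and Ubtf had none. The sites of Bop1 and Wdr12 were centred at -551.5 and -650.5 bp. Neighbouring genes are not given for these lists, so a site may also belong to another gene. Of 9 genes for the control of TOP mRNAs 3 had a site (33.3%, 12.1 to 64.6%, an interval that holds the 14.0% of all protein-coding genes), Larp1 (619 bp), which binds the tract, Rptor (905 bp) and Cnbp (1013 bp), and Mtor, Rheb and the S6 kinase genes Rps6kb1 and Rps6kb2 had none. Of 7 factors known from ribosomal protein promoters 4 had a site (57.1%, 25 to 84.2%), Gabpa, Gabpb1, Yy1 and Tbpl1, and Sp1, Myc and Max had none.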

How the data were processed

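ChIP-seq was performed on 4 ASH2L and 4 input libraries (single-end, 75 cycles). According to the study's methods and the submitters' processing notes, the authors trimmed the reads, aligned them with BWA to mm10, filtered them with SAMtools, merged replicates and called narrow peaks with MACS2; versions are not given in the sources used here. The list analysed here, deposited by the authors, holds 6444 sites with start and end positions (unit other: base pairs) and no count, score or sample column, and their list of sites changed after dTAG was not analysed here, so depth is unknown and the planned edgeR test of the dTAG change was not run. Starts are counted from 0, as the smallest width of exactly 200 bp shows, and are printed from 1. Merging of replicates means that no site can be checked between them.

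Sites were assigned to genes with GENCODE release M21 on GRCm38, whereas the authors used release M25. The main TSS was that of the transcript with the best APPRIS and support level, and the RefSeq mRNA start was an alternative added after seeing the data. Sequence features were read from the GRCm38.p6 RefSeq genome with Python 3.11.15, NumPy 2.4.6, SciPy 1.17.1 and pysam 0.24.0, and the word counts were tested on simulated data. Shares carry 95% Wilson, differences Newcombe and medians order-statistic intervals, all for counting error only, and no hypothesis test was run. The limit for the pseudogenes was set at 3 counts instead. Full values are given for the 5 widest sites, the narrowest at and above the smallest width, the 3 farthest from a TSS in each direction, genes with several sites and the copies, except the coordinates of Rps14. Sequences on chromosome 18 are not printed, and some genes are not reported here by name. The members, gene lists and features were chosen with earlier results of these data known.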

Additional observations from a re-analysis of the deposited data

How the results depend on the processing

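Of 46 alternatives to 7 results, 35 stayed within the interval of the main value and 11 moved. The difference of the small from the large subunit, 4.41 points, ranged from -0.465 with core proteins only to 6.37 with the main TSS only, on both sides of 0. The share of members with a site lay between 69.9 and 72.3% under every alternative run. The downstream share rose from 70.4% to 94.1% with the main TSS only, 81.4% with TSSs of protein-coding transcripts, 90.0% (18 of 20) with the nearest edge in place of the centre and sites that span a TSS set aside and 91.3% with the RefSeq start. The median offset of 86.5 bp became 266, 159 and 214 bp with the main TSS, the protein-coding TSSs and the RefSeq start. The median width rose from 315 to 405 bp when sites within 1 kb were merged. The share with a pyrimidine tract was 15.7% within 2 bases of the TSS and 41.0% at the RefSeq start, and the median share of unique words was 97.5% for 36 and 100.0% for 75 bases. Sites carry no depth, so a missing call can be an absent or a weak signal. No paired analysis was possible because the list has no column per library, and for the same reason leaving out a replicate, edgeR, DESeq2 and the replicate block were not run.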
